A study of Homo sapiens with 4 samples.

Results

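The Notch pathway is followed here through 37 genes, picked by name for their roles as receptors, ligands, receptor-modifying enzymes, proteases, nuclear factors, target genes and regulators of the signal. All 37 were found by gene name among the 60662 genes of the table, and 30 of them had enough counts to be tested. RNA was sequenced from NB4 cells, a human acute promyelocytic leukemia (M3/APL) cell line that carries the PML-RARα fusion protein. One group of 2 libraries came from cells transduced with the empty vector, and the other group of 2 libraries from cells transduced with a vector expressing wild-type JMJD3, the H3K27 demethylase encoded by KDM6B. The comparison between them asks which transcripts differ when JMJD3 is overexpressed. Per the study's methods the constructs were lentiviral (pLVX-IRES-GFP) and infected leukemic cells were sorted for GFP, so both groups share infection, sorting and the vector backbone. The model is thus 1 cell line with a gene expressed from a viral vector. Nothing in the labels tells if each library stands for its own transduction or culture, and the p-values measure only the spread between these samples, which may be technical.

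Notch receptors are cell surface proteins that are cut when a ligand on a neighbouring cell binds them. ADAM metalloproteases make the outer cut and γ-secretase the cut in the membrane, after which the intracellular domain enters the nucleus, binds the DNA-binding protein RBPJ together with a Mastermind-like coactivator and turns on target genes, chiefly those of the HES and HEY families of transcriptional repressors. In blood the pathway is best known for directing progenitors to the T-cell lineage and for its activating NOTCH1 mutations in T-cell leukemia, in which JMJD3 has been tied to NOTCH1 target genes.

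The deposited values are estimated counts and FPKM (fragments scaled to gene length and library size). Counts were scaled to CPM (counts scaled to the TMM-adjusted library size), which serves to compare 1 gene between libraries, whereas levels of different genes are compared in FPKM only. The FPKM of a library summed to 1344845 and 1445366 in vector libraries and to 1004715 and 1018094 in JMJD3 libraries, so FPKM means of the 2 groups are given to rank genes within a group and not as a change between groups, while the limma alternatives compare FPKM between groups as deposited. The total of the deposited counts was 39078443 for vector library 1, 40768225 for vector library 2, 35176388 for JMJD3 library 1 and 34704909 for JMJD3 library 2. A gene with 0 reads could have had up to 3, which corresponds to between 0.0671 and 0.0925 CPM depending on the library, and such limits cover counting error only. Differences are given as the log2 fold change of JMJD3 over vector cells with its standard error (SE), and the threshold was an adjusted p of 0.05 (edgeR quasi-likelihood test, Benjamini-Hochberg over 15246 genes). "Rose" and "fell" are used only for genes past that threshold. Of the 4 libraries, vector library 1 alone was run on lane 20, so that lane 17 holds 1 vector library and 2 JMJD3 libraries. Within lane 17 the lone vector library is assumed to vary like the JMJD3 libraries.

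KDM6B (ENSG00000132510), the transduced gene, was at 15.8 and 13.7 CPM in vector libraries and at 37.8 and 44.2 CPM in JMJD3 libraries. Both JMJD3 libraries were above both vector libraries, as labelled. The log2 fold change was 1.48 (SE 0.13, adjusted p = 0.00114, edgeR quasi-likelihood test), and it includes reads from the vector and from the endogenous gene, which the counts do not separate.

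The cell line label was checked against 7 promyelocyte genes, whose summed level was 17495 and 18332 CPM in the vector libraries and 11634 and 11606 CPM in the JMJD3 libraries. MPO, the granule enzyme myeloperoxidase, made up most of this sum in every library. ELANE, the neutrophil elastase gene, is a defining marker that was nearly absent, at 0.339 and 0.192 CPM in vector libraries and at 0.0268 and 0.0448 CPM in JMJD3 libraries. Of the 7 genes, 4 fell (MPO, PRTN3, AZU1, CTSG) and 2 rose (CD33, ANPEP), and ELANE was not tested. In bulk RNA, fewer cells of a type and less RNA per cell cannot be told apart.

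Markers of other cell types in which Notch genes are known to be active were also summed. The 6 T-cell markers together reached 4.10 and 5.73 CPM in vector libraries and 11.8 and 11.7 CPM in JMJD3 libraries, of which CD2 made up the most. CD2 was the 1 gene of the 6 that rose, CD5 had 0 reads in every library, and the T-cell receptor chains CD3D, CD3E and CD3G did not exceed 0.274 CPM in any. Among 4 endothelial markers, PECAM1, an adhesion molecule that leukocytes carry too, rose and made up nearly all of the sum of 18.4, 18.0, 37.1 and 37.1 CPM, while CDH5 and TEK were at 0 in every library and VWF at 0.0617 CPM or less. The 3 B-cell markers summed to 10.4, 11.6, 17.6 and 15.9 CPM, led by CD79A, which rose, and MS4A1 was at 0. The 4 erythroid markers had 0 reads in all 4 libraries. The part of these markers in the results that follow was not tested.

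Of the 30 tested Notch pathway genes, 7 rose in JMJD3 cells, which is 23.3% of them beside 21.6% of all tested genes. They were the receptor NOTCH1, the ligand DLL1, the γ-secretase subunit NCSTN, the coactivator MAML2, the HES family genes HES2 and HES7, and NUMBL, a homolog of the Notch inhibitor NUMB. MFNG, a glycosyltransferase that modifies the receptors, and the γ-secretase subunit APH1A fell, and these 2 genes are 6.67% of the tested members beside 19.1% of all tested genes. Only DLL1, MAML2 and HES7 rose by at least 2-fold, 3 of 30 tested members beside 7.55% of all tested genes. HES7 passed the filter on low counts through the JMJD3 libraries alone and so had to be higher there, which makes these counts no support for a change of the pathway, and the other 29 passed in both groups. The lowest log2 fold change of any tested member was -0.49, for HEY1, which did not pass. The classical target HES1, the feedback gene NRARP and the ligands DLL4 and JAG1 did not pass the test in either direction.

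**Figure D1:**
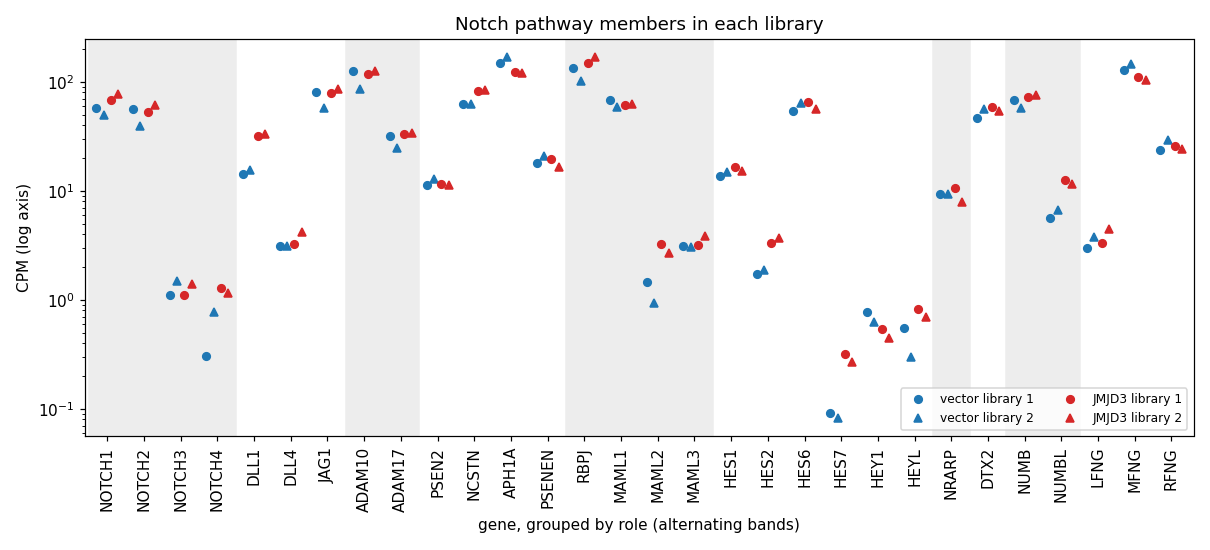
CPM of the 30 tested Notch pathway genes in each of the 4 libraries, on a log axis. Blue marks are vector and red marks JMJD3 libraries (circle for library 1, triangle for library 2), and shaded bands separate the roles. DLL1, MAML2, HES2, HES7 and NUMBL have both red marks well above both blue marks, whereas for most other genes the colors lie close together.

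Among the 4 receptors, NOTCH1 (ENSG00000148400), the one most often mutated in T-cell leukemia, was at 56.9 and 49.8 CPM in vector libraries and at 67.4 and 77.0 CPM in JMJD3 libraries. Both JMJD3 libraries were above both vector libraries, but the gap between the groups was of the size of the gap within the JMJD3 group. It rose by a log2 fold change of 0.44 (SE 0.11, adjusted p = 0.0228, edgeR quasi-likelihood test), and within lane 17 the log2 fold change was 0.50. The call was lost when JMJD3 library 1 or library 2 was left out (adjusted p = 0.0569 and 0.282 in edgeR's quasi-likelihood test, within a range from 0.000503 to 0.282 over all alternatives), with no filter (0.0813 in the same test) and with limma on log2(FPKM + 0.1) and log2(FPKM + 1) (adjusted p = 0.115 and 0.126).

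NOTCH2, a widely expressed receptor with roles in B cells and monocytes, was at 56.4 and 39.5 CPM in vector libraries and at 52.3 and 61.3 CPM in JMJD3 libraries. The groups overlapped, since vector library 1 lay between the JMJD3 libraries, and vector library 2 was the lowest. The log2 fold change of 0.24 (SE 0.18) did not pass the test (adjusted p = 0.303, edgeR quasi-likelihood test). NOTCH2 shares sequence with NOTCH2NL, and with the 1 NOTCH2NL row added to its counts the log2 fold change was 0.22 (adjusted p = 0.294, edgeR quasi-likelihood test, range 0.0196 to 0.945 over alternatives).

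The other 2 receptors were low. NOTCH4, known mainly from endothelium, had 10 and 28 reads in vector libraries and 48 and 52 reads in JMJD3 libraries, or 0.308, 0.768, 1.29 and 1.16 CPM. Both JMJD3 libraries were above both vector libraries, and vector library 1 was well below vector library 2. Its log2 fold change of 1.21 (SE 0.41) missed the threshold (adjusted p = 0.0530, edgeR quasi-likelihood test), and it passed in 6 of 14 alternatives. The value was 0.65 within lane 17, 2.04 without vector library 2, where it passed (adjusted p = 0.00936, edgeR quasi-likelihood test, range 0.00346 to 0.152 over alternatives), and 0.44 with limma on log2(FPKM + 1). NOTCH3 lay between 1.10 and 1.48 CPM in all 4 libraries, with overlapping groups.

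Per length, NOTCH1 and NOTCH2 were at similar levels, with group means of 6.09 and 4.38 FPKM in vector cells and 7.95 and 5.32 FPKM in JMJD3 cells, and in every library NOTCH1 was above NOTCH2 on this scale. NOTCH3 and NOTCH4 stayed under 1 FPKM in every library. The receptors of these cells at the RNA level were therefore mainly NOTCH1 and NOTCH2 in both groups.

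DLL1 (ENSG00000198719), a Delta-like ligand that activates Notch on neighbouring cells, showed the clearest difference among the ligands. It was at 14.1 and 15.6 CPM in vector libraries and at 31.5 and 32.9 CPM in JMJD3 libraries. The libraries of a group were close to each other and the groups were far apart. It rose by a log2 fold change of 1.12 (SE 0.11, adjusted p = 0.00139, edgeR quasi-likelihood test), with 1.01 within lane 17, and passed the threshold under every alternative run.

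JAG1, a ligand of the Jagged type, was at 80.9 and 57.5 CPM in vector libraries and at 79.3 and 86.3 CPM in JMJD3 libraries. Vector library 1 lay within the range of the JMJD3 libraries and vector library 2 was the lowest of the 4. With a log2 fold change of 0.26 (SE 0.16), JAG1 did not pass the test (adjusted p = 0.231, edgeR quasi-likelihood test). DLL4, the ligand best known from sprouting vessels and the thymus, was at 3.11, 3.10, 3.27 and 4.18 CPM in vector libraries 1 and 2 and JMJD3 libraries 1 and 2. JMJD3 library 2 was the highest and the other 3 libraries were nearly equal, with a log2 fold change of 0.27 (SE 0.18, adjusted p = 0.266, edgeR quasi-likelihood test). JAG2 had 1 to 3 reads per library and was not tested.

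On the FPKM scale JAG1 was the most abundant ligand in vector cells, with a mean of 14.6 FPKM beside 6.11 for DLL1 and 1.13 for DLL4. In JMJD3 cells DLL1 had a mean of 14.5 FPKM beside 17.6 for JAG1. The 2 ligands thus lay closer together on this scale in JMJD3 cells than in vector cells, with DLL1 below JAG1 in each of the 4 libraries.

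The fringe enzymes add sugars to the receptors and change which ligands they answer to. MFNG (ENSG00000100060), manic fringe, was at 128 and 145 CPM in vector libraries and at 110 and 103 CPM in JMJD3 libraries. Both JMJD3 libraries were below both vector libraries. MFNG fell by a log2 fold change of -0.36 (SE 0.09, adjusted p = 0.0237, edgeR quasi-likelihood test), with -0.48 within lane 17. The call was lost without JMJD3 library 1 or 2 and with no filter (adjusted p = 0.119, 0.267 and 0.0684 in edgeR's quasi-likelihood test, the range over alternatives being 0.000983 to 0.267).

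RFNG, radical fringe, was at 23.8 and 29.0 CPM in vector libraries and at 25.8 and 24.3 CPM in JMJD3 libraries. LFNG, lunatic fringe, was at 2.96 and 3.76 CPM in vector libraries and at 3.32 and 4.50 CPM in JMJD3 libraries. For both genes the groups overlapped, and the log2 fold changes of -0.08 and 0.22 did not pass the test (adjusted p = 0.647 and 0.427, edgeR quasi-likelihood test). In FPKM, MFNG was the highest of the 3 fringe genes in every library and the highest of all 37 genes, with means of 110 and 88.5 FPKM in vector and JMJD3 cells.

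**Figure D2:**
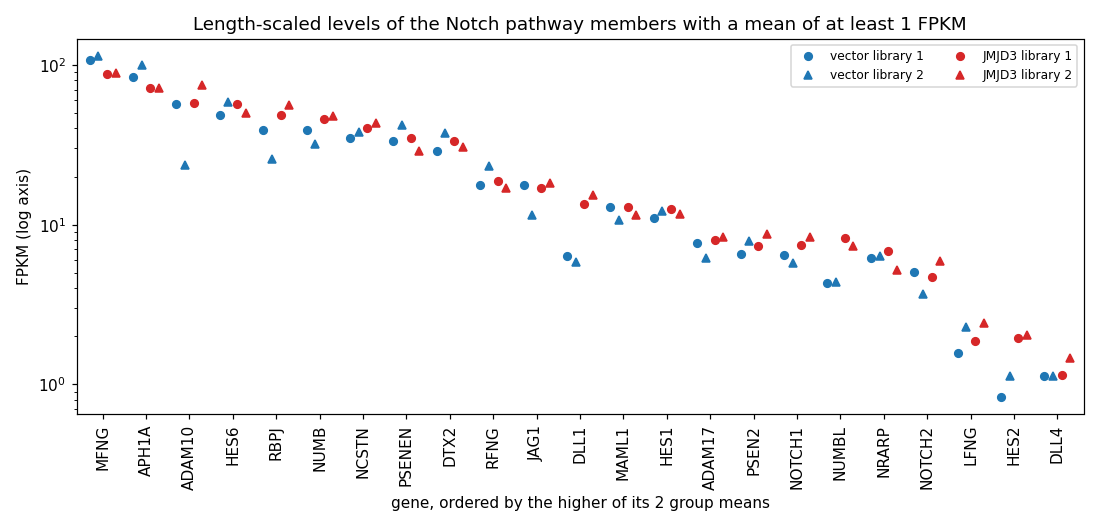
FPKM of the 23 Notch pathway genes with a group mean of at least 1 FPKM in each library, on a log axis, ordered by the higher of the group means. Blue marks are vector and red marks JMJD3 libraries (circle for library 1, triangle for library 2). MFNG and APH1A lead, NOTCH1 and NOTCH2 lie below 10 FPKM, and ADAM10 has vector library 2 far below the other 3 libraries.

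ADAM10, the protease that makes the ligand-dependent outer cut, was at 124 and 86.4 CPM in vector libraries and at 118 and 127 CPM in JMJD3 libraries. Vector library 2 was the lowest and vector library 1 lay within the JMJD3 range. The log2 fold change of 0.21 (SE 0.16) did not pass the test (adjusted p = 0.328, edgeR quasi-likelihood test), was -0.02 without vector library 2 and was 0.46 within lane 17. With limma on log2(FPKM + 0.1) and log2(FPKM + 1) it was 0.84 and 0.82 and did not pass either. In FPKM vector library 2 stood further apart, at 23.7 beside 57.0 for vector library 1 and 57.9 and 74.7 for the JMJD3 libraries.

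ADAM17, a related sheddase, was at 31.6 and 24.7 CPM in vector libraries and at 33.0 and 34.2 CPM in JMJD3 libraries. Both JMJD3 libraries were above both vector libraries, the lowest being vector library 2. Its log2 fold change was 0.26 (SE 0.14, adjusted p = 0.173, edgeR quasi-likelihood test).

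The 4 γ-secretase genes split. NCSTN (ENSG00000162736), which encodes nicastrin, the subunit that receives the substrate, was at 62.9 and 62.6 CPM in vector libraries and at 82.0 and 84.5 CPM in JMJD3 libraries. The libraries of each group nearly coincided and the groups did not overlap. NCSTN rose by a log2 fold change of 0.41 (SE 0.08, adjusted p = 0.0105, edgeR quasi-likelihood test), with 0.37 within lane 17. In FPKM, where the estimated isoform lengths enter, limma gave log2 differences of 0.19 on log2(FPKM + 0.1) and 0.18 on log2(FPKM + 1) that did not pass (adjusted p = 0.204 and 0.201, range 0.000669 to 0.204 over alternatives).

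APH1A (ENSG00000117362), a scaffold subunit of the complex, was at 148 and 169 CPM in vector libraries and at 123 and 119 CPM in JMJD3 libraries. Here both JMJD3 libraries were below both vector libraries. It fell by a log2 fold change of -0.39 (SE 0.09, adjusted p = 0.0171, edgeR quasi-likelihood test), with -0.52 within lane 17. The calls of NCSTN and APH1A were both lost when either JMJD3 library was left out, with adjusted p of 0.108 and 0.162 for APH1A and 0.122 and 0.185 for NCSTN (edgeR quasi-likelihood test), and over all alternatives the adjusted p of APH1A ran from 0.000444 to 0.162. APH1A also lost its call with no filter (adjusted p = 0.0556, edgeR quasi-likelihood test) and with limma on log2(FPKM + 0.1) and log2(FPKM + 1) (adjusted p = 0.0565 and 0.0575).

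PSEN2, a catalytic presenilin, was at 11.4 and 12.9 CPM in vector libraries and at 11.5 and 11.2 CPM in JMJD3 libraries. PSENEN, the small subunit that activates presenilin, was at 18.0 and 20.9 CPM in vector libraries and at 19.5 and 16.7 CPM in JMJD3 libraries. For both the groups overlapped, and neither passed the test, with log2 fold changes of -0.10 and -0.10 (adjusted p = 0.532 and 0.557, edgeR quasi-likelihood test). With the scale of the library removed, PSENEN and MAML1 are the members with clear fractions of a read, such as 582.4 for PSENEN in vector library 1 and 2194.4 for MAML1 in the same library, so the values of both are the less certain if reads are shared with another gene.

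RBPJ, the DNA-binding factor on which the nuclear complex forms, was at 134 and 102 CPM in vector libraries and at 148 and 167 CPM in JMJD3 libraries. Both JMJD3 libraries were above both vector libraries, with a wide gap inside each group. The log2 fold change of 0.42 (SE 0.14) narrowly missed the threshold (adjusted p = 0.0532, edgeR quasi-likelihood test), and RBPJ passed in 9 of 15 alternatives. It was 0.59 within lane 17, 0.23 without vector library 2, and 0.71 and 0.69 with limma on log2(FPKM + 0.1) and log2(FPKM + 1), where it passed (adjusted p = 0.0439 and 0.0481, range 0.000221 to 0.226 over alternatives). RBPJ has processed pseudogenes, and the 4 RBPJP rows of the table were at 0 in all libraries, so that adding them changed nothing.

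MAML2 (ENSG00000184384), a Mastermind-like coactivator, was at 1.45 and 0.932 CPM in vector libraries and at 3.22 and 2.71 CPM in JMJD3 libraries, from 47, 34, 120 and 121 reads. The lower JMJD3 library was well above the higher vector library. MAML2 rose by a log2 fold change of 1.30 (SE 0.25, adjusted p = 0.00848, edgeR quasi-likelihood test), was at 1.61 within lane 17 and at 0.34 with limma on log2(FPKM + 1), and passed under every alternative run.

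Its paralog MAML1 was at 67.7 and 58.4 CPM in vector libraries and at 61.7 and 63.0 CPM in JMJD3 libraries. Here the JMJD3 libraries lay between the vector libraries, with a log2 fold change of -0.02 (SE 0.10, adjusted p = 0.908, edgeR quasi-likelihood test). MAML3, the remaining paralog, lay between 3.07 and 3.83 CPM in all libraries and did not pass (log2 fold change 0.19, adjusted p = 0.399, edgeR quasi-likelihood test). On the FPKM scale MAML1 was by far the most abundant of the 3, at a mean of 11.8 in vector and 12.2 in JMJD3 cells, beside 0.174 and 0.484 for MAML2. The paralog that rose was therefore the least abundant of the 3 coactivators.

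**Figure D3:**
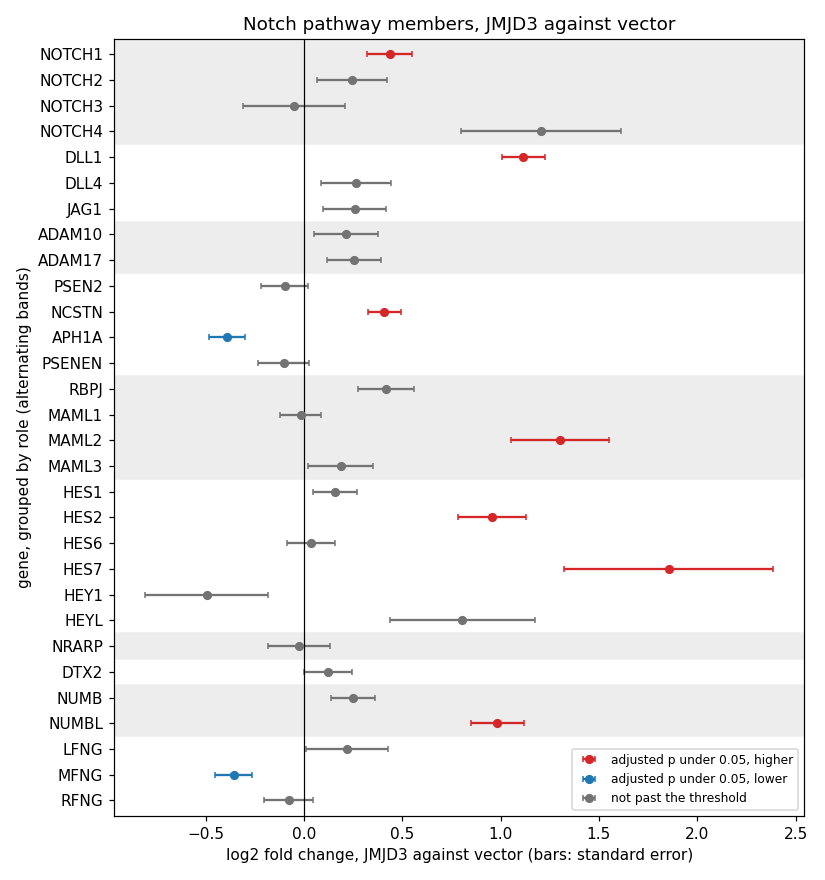
Log2 fold change of JMJD3 over vector cells for the 30 tested Notch pathway genes (points), with the standard error as bars and shaded bands separating the roles. Red points are the 7 genes that rose, blue points the 2 that fell (MFNG and APH1A), and grey points those that did not pass an adjusted p of 0.05. HES7, MAML2 and DLL1 lie above 1, and NOTCH4, also above 1, has a wide bar.

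The targets of the pathway include genes of the HES and HEY families, of which 9 are members. Whether each of the 9 is a target in these cells was not tested. HES1, the most widely used readout of Notch signalling, was at 13.6 and 15.0 CPM in vector libraries and at 16.6 and 15.3 CPM in JMJD3 libraries. Its values in both JMJD3 libraries were slightly above those in both vector libraries, but the difference did not pass the test, with a log2 fold change of 0.16 (SE 0.11, adjusted p = 0.297, edgeR quasi-likelihood test). The HES1 value was 0.05 within lane 17 and 0.07 and 0.06 with limma on log2(FPKM + 0.1) and log2(FPKM + 1), and in FPKM the groups overlapped. HES6, which counteracts HES1, was at 54.0 and 63.6 CPM in vector libraries and at 64.8 and 56.0 CPM in JMJD3 libraries. The groups of HES6 overlapped (log2 fold change 0.04, adjusted p = 0.817, edgeR quasi-likelihood test).

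HES2 (ENSG00000069812), a less studied family member, was at 1.73 and 1.87 CPM in vector libraries and at 3.30 and 3.67 CPM in JMJD3 libraries, from 56, 68, 123 and 164 reads. Both groups were tight and did not overlap. HES2 rose by a log2 fold change of 0.96 (SE 0.17, adjusted p = 0.00704, edgeR quasi-likelihood test), with 0.87 within lane 17 and 0.61 with limma on log2(FPKM + 1). It passed under every alternative run for single genes but was under the 2-fold limit in the main test.

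HES7 (ENSG00000179111), an oscillating gene of the segmentation clock in the embryo, had 3 and 3 reads in vector libraries and 12 and 12 reads in JMJD3 libraries. All 4 values are close to the limit of detection, and the vector libraries stand at it. The ratio of JMJD3 over vector reads, scaled to library size, was 3.36, with an exact Clopper-Pearson 95% counting interval of 1.34 to 10.1. The fitted log2 fold change was 1.85 (SE 0.53, adjusted p = 0.0318, edgeR quasi-likelihood test), and the DESeq2 Wald test did not call it (adjusted p = 0.224, the top of a range that starts at 0.0286). HES7 came into the test through the JMJD3 libraries alone, so an interval above 1 is no support for a rise. The interval also pools the reads of a group and leaves out the spread between libraries. With at least 10 counts in every library HES7 was not tested. The call was also lost without JMJD3 library 1 or 2 and with no filter (adjusted p = 0.201, 0.119 and 0.0632, edgeR quasi-likelihood test), and with limma on log2(FPKM + 0.1) and log2(FPKM + 1), where the log2 difference was 0.77 and 0.23 (adjusted p = 0.176 and 0.209).

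HEY1, a target the study names, had 25 and 23 reads in vector libraries and 20 and 20 reads in JMJD3 libraries. Vector libraries were the higher ones, at a depth that gave a log2 fold change of -0.49 with an SE of 0.31, which did not pass (adjusted p = 0.241, edgeR quasi-likelihood test). In FPKM the groups of HEY1 overlapped, and limma on log2(FPKM + 0.1) and log2(FPKM + 1) gave -0.13 and -0.04. HEYL, of the same family, had 18 and 11 reads in vector libraries and 31 and 31 in JMJD3 libraries, so that HEY1 and HEYL pointed in opposite directions. HEYL had a log2 fold change of 0.80 (SE 0.37, adjusted p = 0.123, edgeR quasi-likelihood test), with 0.52 and 0.12 in the same 2 limma fits. HES5, the other target named by the study, had 0 reads in all 4 libraries, as did HES4 and HEY2, so each was at or below the limit of 3 reads in every library.

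NRARP, a small ankyrin repeat protein that Notch turns on and that dampens the signal in turn, was at 9.40 and 9.35 CPM in vector libraries and at 10.5 and 7.94 CPM in JMJD3 libraries. Both vector libraries lay between the JMJD3 libraries, and the log2 fold change was -0.03 (SE 0.16, adjusted p = 0.906, edgeR quasi-likelihood test). Among the HES and HEY genes and NRARP, the order in FPKM was HES6, HES1, NRARP, HES2, with vector means of 53.5, 11.5, 6.27 and 0.982. HES7, HEY1 and HEYL had group means below 1.

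The DNA upstream of the members was searched for GTGGGAA, the letters of a typical RBPJ site. Both strands of the 250 bases before each start were read, in the RefSeq promoters of GRCh38.p14. Of the 37 genes, 32 had an entry under their symbol, with 39 windows in all, and DLL1, HEY1, DTX1, DTX3 and MFNG had none. The motif was found in at least 1 window of 6 of these 32 genes (HES1, HES4, HES5, HEY2, HEYL and RBPJ), and in at least 1 window of 6.69% of all 27305 genes with an entry. Its inner letters TGGGAA, which each GTGGGAA contains, were found for 9 of the 32 genes and for 24.6% of all genes, counted in the same way. The 6 genes with GTGGGAA include the 3 with 0 reads in every library (HES4, HES5, HEY2) and 3 that did not pass the test (HES1, HEYL, RBPJ). None of the 6 genes that rose and had an entry, HES2 and HES7 among them, holds these 7 letters in the windows searched. A match of letters describes the sequence and is no evidence of binding, and a window without one says only that the letters are not there.

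The windows of HES1, HEYL and HES5 are shown as target genes with the motif, at 3 different levels of expression. Those of HES2 and HES7 are shown as the HES genes that rose. Each is the 250 bases upstream of the start, read 5′ to 3′ on the gene's strand, and capitals mark GTGGGAA or its reverse complement. HES1 lies at chr3:194135898-194136147 on the plus strand, HEYL at chr1:39639644-39639893 on the minus strand, HES5 at chr1:2530264-2530513 on the minus strand, HES2 at chr1:6419920-6420169 on the minus strand and HES7 at chr17:8124107-8124356 on the minus strand, all in GRCh38.p14. In HES1 the match starts 85 bases before the start, and a TGGGAA without the leading G follows 70 bases before it. HES5 has a forward match 81 bases and a reverse one 224 bases before the start, and HEYL a reverse match 178 bases before it and a forward TGGGAA without the leading G 99 bases before it.
HES1: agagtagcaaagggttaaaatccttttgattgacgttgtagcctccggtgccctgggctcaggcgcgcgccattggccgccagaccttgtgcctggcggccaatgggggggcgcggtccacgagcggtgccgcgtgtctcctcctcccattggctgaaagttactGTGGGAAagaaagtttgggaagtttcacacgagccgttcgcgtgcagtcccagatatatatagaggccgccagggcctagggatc
HEYL: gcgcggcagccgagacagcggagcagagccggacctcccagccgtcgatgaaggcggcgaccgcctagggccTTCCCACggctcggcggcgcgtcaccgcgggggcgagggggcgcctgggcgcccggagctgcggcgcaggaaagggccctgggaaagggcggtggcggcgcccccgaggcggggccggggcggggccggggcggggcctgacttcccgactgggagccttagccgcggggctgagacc
HES5: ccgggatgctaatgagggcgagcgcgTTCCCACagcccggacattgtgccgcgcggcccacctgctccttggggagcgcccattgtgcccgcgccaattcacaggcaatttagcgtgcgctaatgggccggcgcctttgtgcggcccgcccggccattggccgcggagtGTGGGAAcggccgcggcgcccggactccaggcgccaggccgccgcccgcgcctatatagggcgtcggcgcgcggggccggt
HES2: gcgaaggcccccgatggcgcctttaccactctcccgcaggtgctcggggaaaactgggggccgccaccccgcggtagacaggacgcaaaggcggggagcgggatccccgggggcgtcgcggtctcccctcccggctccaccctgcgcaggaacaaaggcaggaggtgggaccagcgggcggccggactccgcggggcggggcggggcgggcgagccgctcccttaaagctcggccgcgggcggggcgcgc
HES7: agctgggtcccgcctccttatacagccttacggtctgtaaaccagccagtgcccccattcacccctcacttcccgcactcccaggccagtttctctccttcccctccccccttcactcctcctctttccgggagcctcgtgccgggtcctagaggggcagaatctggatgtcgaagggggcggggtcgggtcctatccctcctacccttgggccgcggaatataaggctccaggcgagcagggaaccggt

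The members' windows were rich in G and C, with a median of 68.4% over 39 windows beside 58.0% over all 35116. Of the printed windows HEYL had the most, 79.6%, and HES1 the least, 59.2%.

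The deltex genes encode ubiquitin ligases that bind the receptors' intracellular domain. DTX2 was at 46.8 and 56.6 CPM in vector libraries and at 58.7 and 54.0 CPM in JMJD3 libraries. The groups overlapped, and the log2 fold change of 0.12 (SE 0.12) did not pass (adjusted p = 0.441, edgeR quasi-likelihood test). With the counts of its 2 DTX2P1 pseudogene rows added it was 0.16 (adjusted p = 0.269, edgeR quasi-likelihood test, range 0.0450 to 0.873 over alternatives, the lowest without vector library 2). DTX1, DTX3 and DTX4 had 0 to 3 reads in each library and were not tested, so of these 4 genes DTX2 alone was tested.

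NUMB and NUMBL encode endocytic adaptors that hold back Notch receptors in dividing cells. NUMBL (ENSG00000105245) was at 5.64 and 6.64 CPM in vector libraries and at 12.7 and 11.6 CPM in JMJD3 libraries. The JMJD3 libraries were far above the vector libraries and each group was tight. NUMBL rose by a log2 fold change of 0.98 (SE 0.13, adjusted p = 0.00304, edgeR quasi-likelihood test), with 0.83 within lane 17. It passed under every alternative run for single genes but was under the 2-fold limit in the main test. NUMB was at 68.5 and 56.9 CPM in vector libraries and at 72.8 and 76.3 CPM in JMJD3 libraries. Both JMJD3 libraries of NUMB were above both vector libraries, with a log2 fold change of 0.25 (SE 0.11) that did not pass (adjusted p = 0.118, edgeR quasi-likelihood test) and was 0.40 and 0.40 with limma on log2(FPKM + 0.1) and log2(FPKM + 1). In FPKM, NUMB remained the more abundant of the pair, with means of 35.6 and 46.9 beside 4.34 and 7.76 for NUMBL in vector and JMJD3 cells.

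Taken over the tested members, the groups did not overlap for 18 of 30 genes, or 60.0%, beside 74.3% of all tested genes. JMJD3 libraries were the higher ones for 15 of these 18 and vector libraries for 3. This split by direction was not counted over all tested genes and is no result about the members. The median log2 fold change was 0.23 over the 30 members and 0.04 over all tested genes, and 21 members had a positive value and 9 a negative one, while 52.7% of all tested genes were positive. The 7 untested members are not part of these counts, and HES7, tested through its JMJD3 libraries alone, is.

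Several members with a value above 0 that missed the threshold shared 1 feature, a low vector library 2. NOTCH2, JAG1, ADAM10, ADAM17, RBPJ and NUMB each had their lowest value there, and HEYL did too. Within lane 17 vector library 2 is the only vector library. There the log2 fold changes of these 7 genes ran from 0.35 (NUMB) to 1.24 (HEYL). RFNG, in which vector library 2 was the highest, was at -0.25 within lane 17 and at 0.075 without that library. Without vector library 2, on the other hand, NOTCH2, JAG1 and ADAM10 were at 0.01, 0.04 and -0.02 on the log2 scale, and ADAM17, NUMB, RBPJ and HEYL at 0.09, 0.12, 0.23 and 0.44. Genes picked for a low vector library 2 are bound to be higher within lane 17 and lower without that library. HES1, HES6, DTX2, LFNG and NOTCH4, also above 0 and not past the threshold, had their lowest value in vector library 1 instead. The share of all tested genes with either feature was not counted. Whether vector library 1 or 2 is the more typical cannot be told from 2 libraries, and lane and library cannot be told apart in the vector group. DLL1, HES2, MAML2 and NUMBL passed whichever library was left out.

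**Figure D4:**
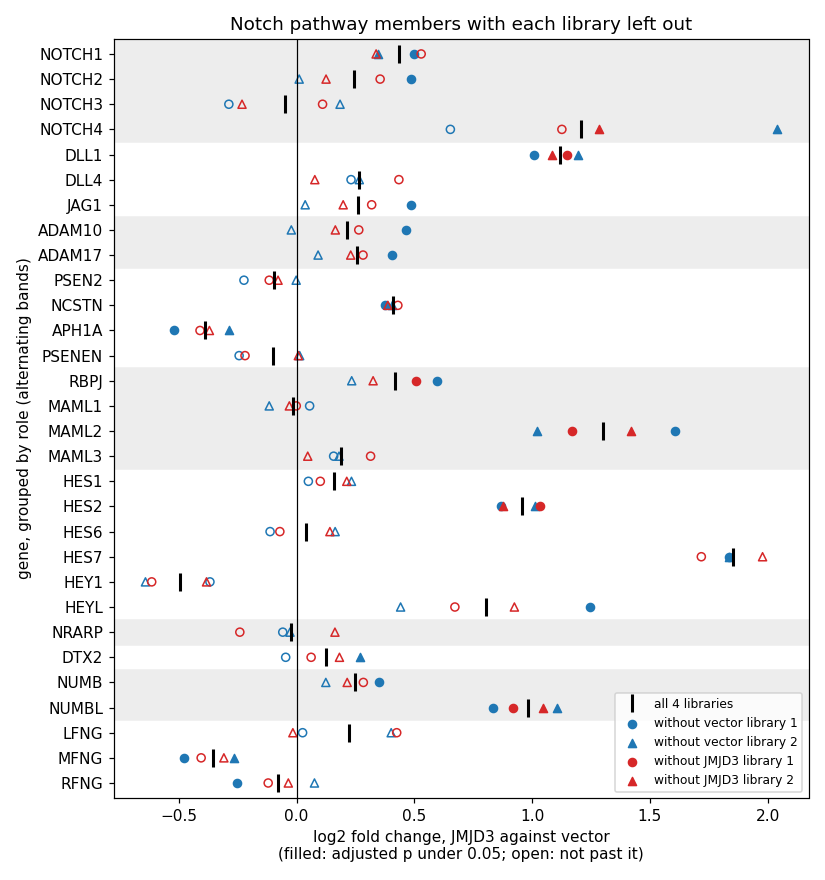
Log2 fold change of JMJD3 over vector cells for the 30 tested Notch pathway genes with all 4 libraries (black bars) and with 1 library left out (blue without a vector library, red without a JMJD3 library, circle for library 1 and triangle for library 2). Filled marks passed an adjusted p of 0.05 and open marks did not. For DLL1, HES2, MAML2 and NUMBL all 4 marks are filled, whereas RBPJ, ADAM10, JAG1 and NOTCH2 move from 0.23 or less without vector library 2 to 0.46 or more without vector library 1.

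A list of 37 further genes of the pathway was read from the same test, covering noncanonical ligands, ubiquitin ligases, receptor-processing enzymes, corepressors, coactivators and endocytic factors. Of these, 31 were tested, and the median log2 fold change was -0.03. Of the tested genes 2 rose, or 6.45% beside 21.6% of all tested genes, and 5 fell, or 16.1% beside 19.1%. DLK1, a noncanonical ligand that is thought to inhibit Notch, was at 1.05 and 1.56 CPM in vector libraries and at 4.83 and 4.99 CPM in JMJD3 libraries. With JMJD3 libraries far above vector libraries, DLK1 rose by a log2 fold change of 1.90 (SE 0.21, adjusted p = 0.00201, edgeR quasi-likelihood test), was at 1.24 and 0.64 with limma on log2(FPKM + 0.1) and log2(FPKM + 1), and passed in all 14 alternatives. EGFL7, a secreted protein that binds Notch receptors, was at 2.41 and 2.44 CPM in vector and 3.89 and 3.29 CPM in JMJD3 libraries and rose by 0.57 on the log2 scale (SE 0.17, adjusted p = 0.0355, edgeR quasi-likelihood test). The call of EGFL7 held in 6 of 14 alternatives and in none with a library left out.

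The genes that fell included EPN1, the endocytic adaptor epsin that ligand-sending cells need, at 131 and 155 CPM in vector libraries and 101 and 98.5 CPM in JMJD3 libraries. EPN1 had a log2 fold change of -0.52 (SE 0.10, adjusted p = 0.00912, edgeR quasi-likelihood test) and passed in 13 of 14 alternatives, all but the one without JMJD3 library 2. CCNC, the cyclin of the Mediator kinase that marks the Notch intracellular domain for turnover, and KAT2A, a histone acetyltransferase, fell by 0.35 and 0.35 on the log2 scale. The corepressor genes CTBP1 and HDAC1 made up the rest of the 5. The call held in 8 of 14 alternatives for CCNC, 10 for KAT2A, 7 for CTBP1 and 7 for HDAC1, and was lost for each without either JMJD3 library and with no filter.

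Of 12 genes that NOTCH1 is known to turn on in T cells, 5 were tested. BCL11B, a transcription factor of T-cell commitment, was at 0.278 and 0.219 CPM in vector libraries and at 0.724 and 0.649 CPM in JMJD3 libraries. It rose by a log2 fold change of 1.51 (SE 0.36, adjusted p = 0.0168, edgeR quasi-likelihood test) from a level that was below 1 CPM in all 4 libraries. Like HES7 it passed the filter through the JMJD3 libraries alone, and it was not tested with at least 10 counts in every library. The call of BCL11B held in 8 of 13 alternatives and was lost in the DESeq2 Wald test, without either JMJD3 library and with limma on log2(FPKM + 0.1) and log2(FPKM + 1), where the log2 difference was 0.75 and 0.12. MYC, the growth regulator that NOTCH1 drives in T-cell leukemia, was at 1250 and 1255 CPM in vector libraries and at 1025 and 1010 CPM in JMJD3 libraries. MYC fell by a log2 fold change of -0.30 (SE 0.07, adjusted p = 0.0131, edgeR quasi-likelihood test), a call that held in 11 of 14 alternatives and was lost without either JMJD3 library. PTCRA, GATA3 and LEF1 had 0 reads in every library.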

How the data were processed

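Libraries were polyA-selected with a TruSeq RNA kit that does not mark strand and sequenced as paired ends, so reads of a gene and of an antisense neighbour cannot be told apart. Per the labels the processing notes name CASAVA 1.8, TopHat2 2.0.4, RSEM, edgeR and GRCh38, without roles, whereas the study's methods name Cutadapt, STAR, hg19, HTSeq-count and DESeq2. The sources thus differ on the build, and the deposited table gives no positions. The deposited count columns hold estimated counts: 93.8% of their nonzero values are whole multiples (within 0.05 read) of 1 step per library, and 1.50% are whole as they stand, so the authors had multiplied each library by a scale factor. Read numbers given per gene have that factor removed. The authors deposited FPKM per gene and library as well, which depends on the isoform lengths estimated in each library, and their own fold change, p-value and FDR columns were not used.

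Deposited counts were rounded, kept with edgeR's filterByExpr (15246 of 60662 genes), TMM-scaled and fitted with glmQLFit and glmQLFTest of edgeR 4.0.16 in R 4.3.3, 2 against 2 libraries, with no covariate and Benjamini-Hochberg adjustment. The SE is the size of the log2 fold change divided by the square root of F. Alternatives were DESeq2 1.42.0 size factors and Wald test, upper quartile scaling, a replicate block, no filter, at least 10 counts in every library, limma 3.58.1 on FPKM (log2, pseudocounts 1 and 0.1), each library left out, a 2-fold limit and, for NOTCH2, DTX2 and RBPJ, sums with near-identical copies. The 2-fold limit was applied to counts of genes only and is not among the alternatives of single genes. A crossed block, counts with the library scale removed and the alternatives of single genes of the further lists were added after seeing the data. The fit was tested on simulated counts. Correlations of log2 CPM across genes were 0.991 between the vector libraries, 0.995 between the JMJD3 libraries and 0.969 to 0.975 between groups.

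The members and all gene lists were chosen with earlier results of these data known. Values per library are given for KDM6B, members past the threshold, NOTCH1, HEY1, HES5 and members with a mean of at least 1 FPKM, for up to 3 genes per direction of the further lists, and for NOTCH4 and HEYL, chosen after their values were seen. Other members are given by range and count, and by name where at 0 in all libraries. CTBP1, HDAC1, PTCRA, GATA3 and LEF1 were also named after their values were seen.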

Additional observations from a re-analysis of the deposited data

How the results depend on the processing

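The log2 fold change of KDM6B lay between 1.19 and 1.58 and passed the threshold under every alternative. DLL1, HES2, MAML2 and NUMBL also passed in all of theirs, though HES2 and NUMBL were under the 2-fold limit in the main test. With at least 10 counts in every library HES7 and BCL11B were not tested and have no value. HES7, NOTCH1, NCSTN, MFNG and APH1A kept their direction in all and lost the call in some. Over the alternatives of single members, 349 values kept direction and side of the threshold, 23 lost the call, 28 gained it and 22 changed sign.

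Members that rose numbered 7, and 14 with the crossed block, 3 with the 2-fold limit and 5 to 14 with 1 library left out (14 without vector library 1). Members that fell numbered 2, and 1 with limma at either pseudocount, 0 with no filter, 0 with the 2-fold limit and 0 to 3 with 1 library left out (0 without either JMJD3 library). Of all genes 3292 rose, and 2032 with limma on log2(FPKM + 0.1), 2046 on log2(FPKM + 1), 1893 with no filter, 1151 with the 2-fold limit and 1920 to 4343 with 1 library left out. Of all genes 2906 fell, and 1776 with no filter, 430 with the 2-fold limit and 1133 to 4183 with 1 library left out. Removing a library leaves fewer samples, yet the counts of all genes were smaller without a JMJD3 library and larger without a vector library. Without a vector library and with the crossed block, more members rose, and so did more of all genes. Whether the members exceeded that wider shift was not tested. Using no filter adds genes to the adjustment. The cause of the other shifts, those with a library left out among them, was not tested.

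With upper quartile scaling the log2 fold change of NRARP was 0.012 and that of MAML1 0.023. With limma on log2(FPKM + 0.1) and log2(FPKM + 1), HES6 was at -0.0059 and -0.0058, DTX2 at -0.042 and -0.041, MAML1 at 0.052 and 0.048, PSEN2 at 0.15 and 0.14, DLL4 at 0.18 and 0.11, LFNG at 0.16 and 0.11, MAML3 at 0.38 and 0.16, PSENEN at -0.23 and -0.23, and RFNG at -0.18 and -0.18. With 1 library left out, the values ran from -0.29 to 0.18 for NOTCH3, 0.077 to 0.43 for DLL4, 0.047 to 0.31 for MAML3, -0.22 to -0.0022 for PSEN2, -0.11 to 0.16 for HES6, -0.24 to 0.16 for NRARP, -0.047 to 0.27 for DTX2, -0.12 to 0.055 for MAML1, -0.016 to 0.42 for LFNG, -0.25 to 0.075 for RFNG, -0.023 to 0.46 for ADAM10 and -0.24 to 0.013 for PSENEN. None of these genes passed in the comparison of all libraries.

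The replicate block gave 9 members that rose, the 7 and NOTCH4 and RBPJ, and 2 that fell, with 3267 and 2415 of all genes, and changed no other member's call. Of the further genes CTBP1, HDAC1, KAT2A, CCNC and MYC were not called with it. Replicate numbers do not pair the libraries (correlation of the deviations -0.15). The crossed block, which pairs unlike replicate numbers without a basis in the labels, gave 14 and 2 members and 4335 and 3772 of all genes. With the library scale removed 6219 of 15243 genes were called, 6176 of them among the 6198 called from the counts as deposited.

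Depth limits the low members most: HES7, HEY1, HEYL and NOTCH4 rest on 3 to 52 reads a library, and 7 members were too low to test.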
